A study of Arabidopsis thaliana with 4 samples.

Results

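The WRKY transcription factors described here are all genes whose symbol in the array's platform annotation is WRKY followed by a number, each with a probe set assigned to a single gene. That rule used no measured value and gave 6 genes of the 13356 with a single-gene probe set: WRKY6 (AT1G62300), WRKY42 (AT4G04450) and WRKY47 (AT4G01720) of group IIb, WRKY20 (AT4G26640) of group I, WRKY22 (AT4G01250) of group IIe and WRKY53 (AT4G23810) of group III, which are structural groups of the family. Each had 1 probe set, and the RefSeq TAIR10.1 name table gave all 6 the same symbol. That table holds 67 genes with a current WRKY symbol, so the 6 do not stand for the family, and the others were not analysed here. Of the 6 loci 5 carry a chromosome 4 identifier, against 14.5% of the single-gene loci on the array and 23.9% of the WRKY symbols in the name table.

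WRKY proteins are plant transcription factors named for the amino acid motif in their DNA-binding domain, and they act on target promoters through a short element called the W-box. The family is sorted by the number and type of these domains into groups I, IIa to IIe and III. In leaves many members act in pathogen defence, downstream of mitogen-activated protein kinases and salicylic acid, and several take part in senescence, the programmed decline of an ageing or darkened leaf. The family also has a place in sugar biology, since its early known member, SPF1 of sweet potato, binds promoters of sugar-inducible storage genes.

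Levels of RNA were measured in detached leaves of Arabidopsis thaliana, ecotype Col-0 and wild type, on Affymetrix ATH1 arrays. The plants were not yet flowering, and mature, sugar-exporting leaves were taken from them when the 14 h day ended. Both groups were kept in darkness for 13 h with the petiole in MES buffer (2 mM, pH 6.5), which held 100 mM sucrose for 2 arrays and 100 mM sorbitol, the control at equal concentration, for 2 arrays. The plants were used to nights of 10 h, so all leaves had a longer darkness than usual, and a difference below is between 2 sets of dark-kept leaves. The labels do not say whether the arrays of a group came from separate plants, so p-values measure the spread between these arrays alone, which may be technical.

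The values are intensities per probe set, scaled by the authors so that each array has the same trimmed mean. The leaf label was checked against marker genes fixed by locus. Of 6 mesophyll markers 4 had a single-gene probe set, and on every array these 4 had intensities of at least 438.1, whereas the pollen marker MGH3 lay at 0.7 to 9.2, at or below the highest of 27 Bacillus control probe sets (9.3), which are designed for bacterial transcripts. For all 4, each sucrose value lay below each sorbitol value, which held in that direction for 26.2% of all tested probe sets. PSAN fell by 2.26 (limma adjusted p = 0.0497) and PRK fell by 2.28 (limma adjusted p = 0.0487) on the log2 scale, while RCA and LHCB4.1 had changes of -1.61 and -1.01 and did not pass. The count called was thus 2 of 4, beside 1.29% of all tested probe sets called in either direction. Without sucrose 2, sorbitol 1 or sorbitol 2 neither PSAN (limma adjusted p = 0.0667, 0.268 and 0.259) nor PRK (0.0645, 0.268 and 0.226) passed. With no filter on dim probe sets PSAN and PRK also did not pass (limma adjusted p = 0.129 and 0.125). Nor did they pass without a variance trend (limma adjusted p = 0.0622 and 0.0574) or with quantile normalisation (limma adjusted p = 0.0658 and 0.0620). Under the other alternatives that kept all arrays both passed. The part of these markers in the results below was not tested. The guard cell marker FAMA was at 39.5 and 37.0 in sucrose and 41.3 and 55.6 in sorbitol, and no phloem, epidermis, trichome or root marker was analysed here. In these whole leaves fewer cells of a type and less RNA per cell cannot be told apart. The arrays differed by replicate number in the control for large-subunit ribosomal RNA, at 1255 on sucrose 1 and 2163 on sorbitol 1, against 56.6 on sucrose 2 and 14.4 on sorbitol 2, so changes are also given within replicate 1 and within replicate 2.

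None of the WRKY genes passed the test between sucrose and sorbitol (limma, Benjamini-Hochberg adjusted p under 0.05 over 13648 probe sets), although WRKY6 was 3.23-fold higher in sucrose and WRKY47 2.48-fold lower. WRKY53, a promoter of leaf senescence, differed between the groups by less than its small spread between replicates. Of the 6 genes 5 were bright enough to be tested, and the count of 0 stands beside 1.29% of all probe sets called in either direction. At an unadjusted p under 0.05 the count was 2 of 5, WRKY6 and WRKY47, beside 20.7% of all probe sets. With the replicate number as a block in the fit, WRKY6 (limma adjusted p = 0.0121) and WRKY47 (limma adjusted p = 0.0297) passed, 2 of 5 beside 17.1% of all probe sets. WRKY47 was bright enough to be tested through its sorbitol arrays, since its sucrose mean lay under the required level. The labels do not say that this number marks a batch. For a single gene, an exact permutation test of 2 arrays against 2 cannot give a two-sided p below 0.333.

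**Figure D1:**
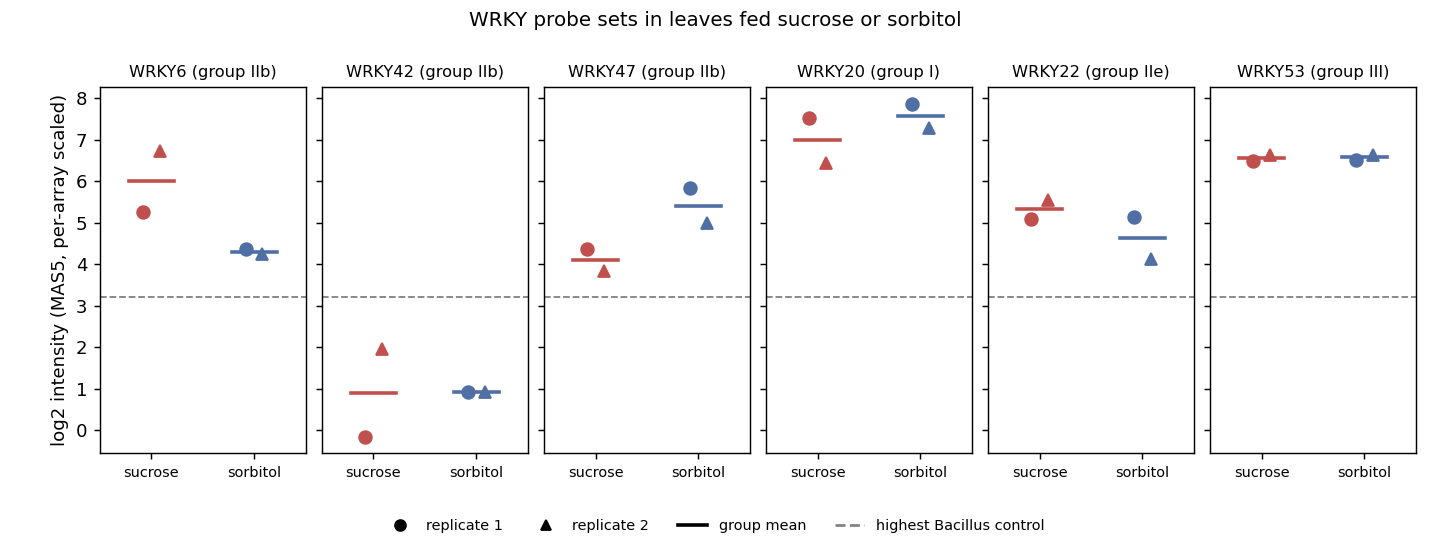
Log2 intensity (y axis) of the 6 WRKY probe sets in sucrose-fed and sorbitol-fed leaves, with a circle for replicate 1, a triangle for replicate 2, a bar for the group mean and a dashed line at the highest Bacillus control intensity of 9.3; heights are not comparable between genes. The sucrose points lie above both sorbitol points for WRKY6 and below both for WRKY47, overlap for WRKY20, WRKY22 and WRKY53, and WRKY42 lies under the line on all 4 arrays.

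WRKY6 is linked to senescence and defence, and in Arabidopsis it also represses PHO1, a gene for phosphate export to the shoot. Its intensity was 38.6 and 105.3 on sucrose 1 and sucrose 2, against 20.5 and 19 on sorbitol 1 and sorbitol 2. Both sucrose arrays were above both sorbitol arrays, which held in that direction for 26.1% of all tested probe sets. The sorbitol arrays were nearly equal, while sucrose 2 was 2.73-fold above sucrose 1. The log2 level averaged 5.99 ± 1.02 in sucrose and 4.30 ± 0.078 in sorbitol (SD, n = 2 each).

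The log2 change of WRKY6 was 1.69 ± 0.52 SE, with a 95% interval of 0.43 to 2.96 (limma adjusted p = 0.150). It was 0.91 within replicate 1 and 2.47 within replicate 2, the same direction in both. Of all tested probe sets 2.65% had a change at least as high. The size rested in large part on sucrose 2, since the change was 0.97 without that array and 2.42 without sucrose 1. Sucrose 2 also stood apart on a control read for RNA quality, the 3 prime minus 5 prime log2 difference of GAPDH. This was lowest there, at 0.20, with 1.43 on sucrose 1, against 1.85 and 1.44 on sorbitol 1 and 2. The part of this in the result was not tested.

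WRKY47, a further group IIb gene, lay in the opposite direction. It had intensities of 20.6 and 14.3 on sucrose 1 and sucrose 2, against 57 and 31.8 on sorbitol 1 and sorbitol 2. Both sucrose arrays were below both sorbitol arrays, which held in that direction for 26.2% of all tested probe sets. The log2 level averaged 4.101 ± 0.37 in sucrose and 5.41 ± 0.60 in sorbitol (SD, n = 2 each). The sucrose mean lay under the level required for testing (an intensity of 18.6) and the sorbitol mean above it. WRKY47 thus came to be tested through the group where it was higher.

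The log2 change of WRKY47 was -1.31 ± 0.45 SE, with a 95% interval of -2.39 to -0.23 (limma adjusted p = 0.178). The replicate numbers gave similar sizes, -1.47 within replicate 1 and -1.15 within replicate 2. Of all tested probe sets 5.50% had a change at least as low. In both groups the replicate 2 array was dimmer than the replicate 1 array, by 1.44-fold in sucrose and 1.79-fold in sorbitol.

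WRKY42, which in Arabidopsis shares with WRKY6 the repression of PHO1, was too dim to be tested. It had intensities of 0.9 and 3.9 on sucrose 1 and sucrose 2, against 1.9 and 1.9 on sorbitol 1 and sorbitol 2. All 4 values were under the Bacillus control intensity of 9.3, so the probe set gives an upper bound and no fold change. PHO1 itself was not analysed here.

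WRKY20, a group I protein with a pair of WRKY domains, is known to activate the promoter of APL3, which encodes a large subunit of the enzyme that makes the starch precursor ADP-glucose. Its intensity was 185.5 and 86.5 on sucrose 1 and sucrose 2, against 232.6 and 155.7 on sorbitol 1 and sorbitol 2. The groups overlapped, with sucrose 1 between the sorbitol arrays, and replicate 2 was the dimmer array in each group. The log2 change was -0.59 ± 0.45 SE, with a 95% interval of -1.68 to 0.51 (limma adjusted p = 0.518), and was -0.33 within replicate 1 and -0.85 within replicate 2. Without sucrose 2 the change was -0.04.

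APL3, chosen for this comparison after its values were seen, had 1663 and 1227 on sucrose 1 and sucrose 2, against 170.8 and 268.7 on sorbitol 1 and sorbitol 2. It rose by 2.74 on the log2 scale (limma adjusted p = 0.0365), with 3.28 within replicate 1 and 2.19 within replicate 2. It did not pass without sorbitol 1 (change 2.41, limma adjusted p = 0.230), without sorbitol 2 (3.06, limma adjusted p = 0.132) or with no filter on dim probe sets (2.74, limma adjusted p = 0.0948). The arrays measure RNA, and neither the WRKY20 protein nor its activity was measured.

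WRKY22, a group IIe protein, acts downstream of the kinase cascade that responds to bacterial flagellin and takes part in dark-induced senescence in Arabidopsis. Its intensity was 34.2 and 47.1 on sucrose 1 and sucrose 2, against 35.4 and 17.6 on sorbitol 1 and sorbitol 2. One array, sorbitol 2, lay well below the other 3, and the groups overlapped. The replicate numbers disagreed, with a log2 change of -0.05 within replicate 1 and 1.42 within replicate 2. Over all 4 arrays the change was 0.69 ± 0.46 SE, with a 95% interval of -0.42 to 1.79 (limma adjusted p = 0.457), and it was 0.18 (limma adjusted p = 0.920) without sorbitol 2.

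WRKY53, of group III, promotes the onset of leaf senescence in Arabidopsis and is itself a classic early marker of it. Its intensity was 89.6 and 99.6 on sucrose 1 and sucrose 2, against 91.7 and 99.7 on sorbitol 1 and sorbitol 2. The 4 arrays were nearly alike, and the small differences followed the replicate number rather than the sugar, with replicate 2 above replicate 1 by 1.11-fold in sucrose and 1.09-fold in sorbitol. The log2 change was -0.02 ± 0.30 SE (limma adjusted p = 0.981), with -0.03 within replicate 1 and -0.0014 within replicate 2. Its 95% interval, -0.73 to 0.70, was the narrowest of the 5 and leaves room for a change of that size in either direction.

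**Figure D2:**
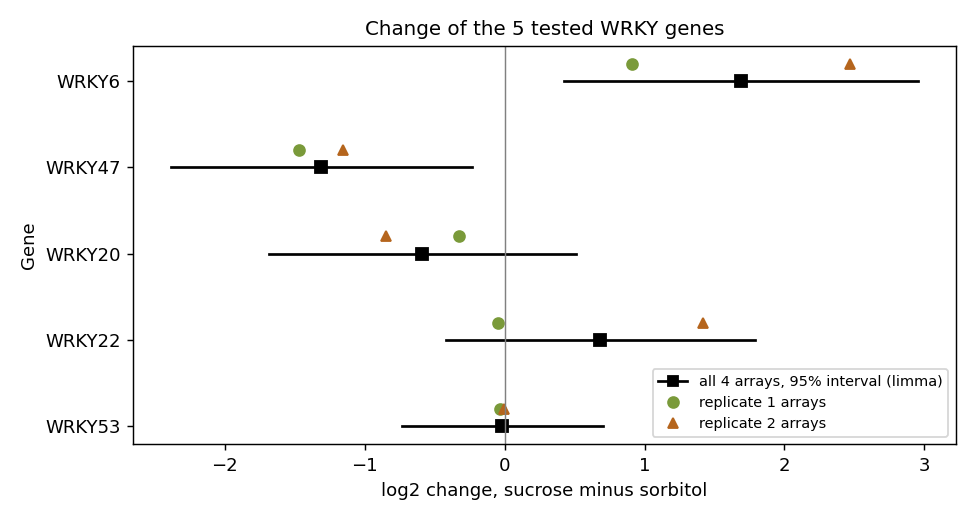
Log2 change, sucrose minus sorbitol (x axis), of the 5 tested WRKY genes, as a square with its 95% interval from limma over all 4 arrays, a circle for the replicate 1 arrays and a triangle for the replicate 2 arrays. The intervals of WRKY6 (0.43 to 2.96) and WRKY47 (-2.39 to -0.23) exclude 0 before adjustment over all probe sets, and those of WRKY20, WRKY22 and WRKY53 span it.

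Among themselves the tested genes showed no common direction: 2 were higher and 3 lower in sucrose. Their median log2 change was -0.017, beside 0.023 for all tested probe sets, and it lay between -0.078 and 0.059 with each array left out in turn. It was -0.050 within replicate 1 and -0.0014 within replicate 2. Without regard to sign, the median size was 0.69 for the 5 tested genes and 0.45 for all tested probe sets. The groups did not overlap for 2 of the 5, beside 52.3% of all probe sets. In group IIb, WRKY6 had a change of 1.69 and WRKY47 of -1.31, neither past the threshold, and the difference between them was not tested.

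**Figure D3:**
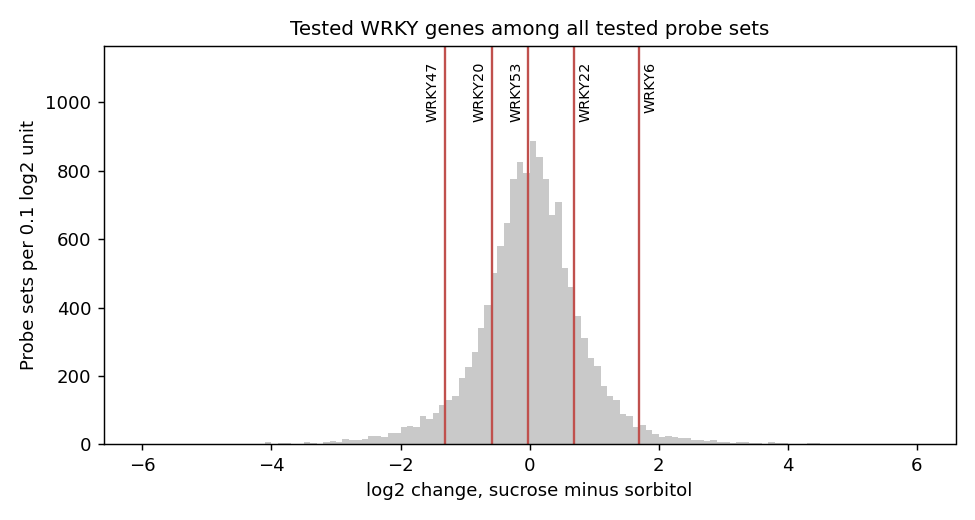
Number of probe sets (y axis) by log2 change, sucrose minus sorbitol (x axis, in steps of 0.1), for the 13648 tested probe sets, with a red line at each tested WRKY gene. WRKY53 falls within the dense centre. WRKY20 has 18.6% of probe sets at or below it and WRKY47 has 5.50%, while WRKY22 has 16.4% at or above it and WRKY6 has 2.65%.

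Replicate arrays of 1 group differed for WRKY20 and WRKY22 by more than the group means did. For WRKY20 the gap between the sucrose arrays was 1.10 log2 units, reached by 11.9% of tested probe sets, against a change of -0.59. For WRKY22 the gap between the sorbitol arrays was 1.01 log2 units, reached by 9.15% of tested probe sets, against a change of 0.69. For WRKY6 the sucrose gap of 1.45, reached by 5.94% of tested probe sets, was smaller than its change of 1.69. For WRKY53 the gaps were small, at 0.15 and 0.12 in sucrose and sorbitol, but both were also larger than its change of -0.02.

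A related gene lies outside the rule by its symbol alone: ZAP1 (AT2G04880), also known as WRKY1. It had 182.4 and 143.4 on sucrose 1 and sucrose 2, against 206.8 and 191.1 on sorbitol 1 and sorbitol 2. Its log2 change was -0.30 (limma adjusted p = 0.640), -0.18 within replicate 1 and -0.41 within replicate 2. Both sucrose arrays were below both sorbitol arrays, as for 26.2% of all tested probe sets.

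Genes that work with WRKY proteins were read from lists of 46 genes in all, covering the kinase cascade upstream, VQ-motif partner proteins, salicylic acid signalling, and targets or senescence genes linked to the family. Of these 4 had a single-gene probe set and 3 were tested, with 0 higher and 0 lower past the threshold (limma), and 0 at an unadjusted p under 0.05, beside 1.29% and 20.7% of all probe sets. With so few genes a count of 0 lies near those shares. With the replicate block 1 of the 3, SAG29, passed, beside 17.1% of all probe sets called in that fit. That fit used a SAG29 value on sorbitol 1 that lay under the Bacillus control intensity. None of the 9 kinase cascade genes was among them. VQ20, a pollen VQ protein, had intensities of 2.3 to 6.4 on the 4 arrays and was not tested.

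SAG101, a lipase-like partner of EDS1 in defence signalling, had 80.2 and 72.4 on sucrose 1 and sucrose 2, against 66.4 and 53.9 on sorbitol 1 and sorbitol 2. Its log2 change was 0.35 (limma adjusted p = 0.583), 0.27 within replicate 1 and 0.43 within replicate 2. Both sucrose arrays were above both sorbitol arrays, as for 26.1% of all tested probe sets. IKU1, a VQ protein that pairs with a WRKY protein in seed development, had 48.4 and 43.7 in sucrose, against 57.2 and 45 in sorbitol, a log2 change of -0.14 (limma adjusted p = 0.848), with -0.24 within replicate 1 and -0.042 within replicate 2.

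SAG29, also called SWEET15, is a sugar transporter gene used as a marker of senescence. It had 44.2 and 623.7 on sucrose 1 and sucrose 2, against 2.3 and 108.4 on sorbitol 1 and sorbitol 2. The groups overlapped, because replicate 2 lay far above replicate 1, by 14.1-fold in sucrose and at least 11.7-fold in sorbitol. The value on sorbitol 1 was under the Bacillus control intensity of 9.3, which replaces it in that bound and the next. Sucrose was at least 4.75-fold higher within replicate 1, and 5.75-fold higher within replicate 2. With dim values raised to 9.3 the log2 change over all 4 arrays was 2.39 (limma adjusted p = 0.430), and with values as deposited it did not pass (limma adjusted p = 0.382) but passed with the replicate block (limma adjusted p = 0.000106). The blocked fit took the 2.3 on sorbitol 1 as measured, and a blocked fit with dim values raised was not run. As deposited, the sorbitol mean lay under the level required for testing, which SAG29 reached through its sucrose arrays. On the same 4 arrays WRKY53 stayed between 89.6 and 99.7.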

How the data were processed

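The authors used MAS5 to make the deposited intensities, per the submitters' processing notes, and its version and settings are not given in the sources used here. The deposited intensities are linear and scaled per array, as the equal 2% trimmed means of 100.01 show, and were not normalised again. Control probe sets were left out, a floor of 0.1 was set and log2 taken. The 13648 of 22746 probe sets at or above the 40th percentile of mean log2 level (an intensity of 18.6) were tested with limma 3.58.1 in R 4.3.3 (lmFit, eBayes with a trend), with Benjamini-Hochberg adjustment over all of them. The fit without a replicate block was tested on simulated arrays drawn independently of each other. That test does not bear on differences by replicate number or on the blocked fit. Changes are sucrose minus sorbitol. Each SE and 95% interval comes from limma, whose variances borrow from all tested probe sets, so it is not the gene's own spread alone. With 2 arrays a group, the number of arrays limits the precision.

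The members, gene lists and rule for naming genes were chosen with earlier results of these data known. WRKY6, WRKY53 and members past the threshold or with large changes were to be given per array, and all 6 are. Structural groups follow the usual classification of the family. Sequences were not used here. The build of the array is not given in the sources used here, and no position is printed. Alternatives were other filters, a pseudocount, other scalings, eBayes without a trend, a replicate block, each array left out, dim values raised and a mean over probe sets. Those for APL3, the list genes and the median of 5 genes were added after seeing the data.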

Additional observations from a re-analysis of the deposited data

How the results depend on the processing

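Of 62 values of the 5 tested WRKY genes under the alternatives, 57 kept their direction and their side of the threshold, 3 passed the threshold and 2 turned sign. Part of this was fixed beforehand. The filters, replicate block, fit without a trend, mean over probe sets and raised dim values left each log2 change as it was. There only the side of the threshold could differ. With the replicate number as a block, WRKY6 (1.69, limma adjusted p = 0.0121) and WRKY47 (-1.31, limma adjusted p = 0.0297) passed, a count of 2, beside 17.1% of all probe sets called in that fit. Over probe sets, the deviations of arrays sharing a number had a correlation of 0.429, and so few numbers cannot show that they pair the samples. Leaving out single arrays gave 0.97 to 2.42 for WRKY6, -1.73 to -0.89 for WRKY47 and -1.14 to -0.04 for WRKY20. It gave 0.18 to 1.19 for WRKY22 and -0.094 to 0.059 for WRKY53, which turned to 0.043 without sorbitol 2 and 0.059 without sucrose 1. With the dim WRKY42 included, the median over 6 genes was -0.019 with all arrays and 0.49 without sucrose 1, where that of the 5 tested genes was 0.059. Of the 3 values past the threshold, that of WRKY6 without sucrose 1 (2.42) came from a fit with 1 sucrose array left. That fit assumes that this array varies like the sorbitol arrays.

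Probe sets called higher and lower (50 and 126) were 1 and 2 with no filter, 83 higher with the 60th percentile filter, 196 lower with median centring, 26 and 77 without the trend, 21 and 71 with quantile normalisation, 1130 and 1206 with the replicate block, and 0 to 407 and 0 to 548 without single arrays. The causes were not tested. Fits without an array assume that the lone array varies like the other group. With the 60th percentile filter, WRKY6, WRKY22 and WRKY47 were too dim to be tested, and depth at the dim end leaves WRKY42 without a measured change.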
